A study of Mus musculus with 6 samples.

Results

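This account covers 10 genes that mark the output neurons of the mouse striatum, 5 of the direct pathway (Drd1, Tac1, Pdyn, Chrm4, Isl1) and 5 of the indirect pathway (Drd2, Adora2a, Penk, Gpr6, Gpr52). They were taken by symbol from 29458 genes with their own transcript cluster, the group of probes that measures a gene on the array. All 10 had exactly 1 cluster. On GRCm38 (mm10), Drd1 (chromosome 13, 54051183 to 54055658), Tac1 (chromosome 6, 7555061 to 7562978), Pdyn (chromosome 2, 129686549 to 129699938), Chrm4 (chromosome 2, 91922189 to 91929835) and Isl1 (chromosome 13, 116298270 to 116309688) are direct pathway genes. The indirect pathway genes are Drd2 (chromosome 9, 49340360 to 49408177), Adora2a (chromosome 10, 75316877 to 75334792), Penk (chromosome 4, 4133536 to 4138815), Gpr6 (chromosome 10, 41069977 to 41072290) and Gpr52 (chromosome 1, 160574717 to 160579704). They were selected on log2 signals of these same stroke and control arrays, known from earlier work, so their difference between the groups is given as a description, with counts of calls but nothing supported by them.

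The arrays (Affymetrix MoGene-2_0-st) carried ribosome-bound mRNA of CD11brGFP transgenic mice, in which the CD11b promoter, active in microglia and other myeloid cells, drives an RPL10a ribosomal protein tagged with Flag and EGFP. Translating ribosome affinity purification (TRAP) pulls down the tagged ribosomes with their mRNA. Control mice had a sham operation and stroke mice were taken at 24 h from tMCAO, the transient occlusion of the middle cerebral artery, in which a vessel that feeds the striatum and overlying cortex is closed and then reopened. Each group had 3 arrays described as biological replicates, and 6 mice of 2 to 3 months, all carrying the transgene; the labels do not say how mice were divided over arrays, and they call the mice both males only and mixed in sex.

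Striatal projection neurons form 2 populations that are usually told apart by what they express. Direct pathway neurons carry the dopamine receptor that raises cyclic AMP (Drd1), together with the precursors of substance P (Tac1) and dynorphin (Pdyn). Indirect pathway neurons carry the dopamine receptor that lowers cyclic AMP (Drd2), the adenosine receptor that raises it (Adora2a) and the enkephalin precursor (Penk). Both populations convert these inputs through cyclic AMP, which acts on genes in part through the factor CREB and its DNA element, the cyclic AMP response element (CRE).

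These are genes of neurons, whereas the tag was driven by a myeloid promoter. Their mean log2 signals over the 6 arrays lay between 7.12 (Chrm4) and 10.61 (Penk), above the array medians of 5.23 to 5.35. All 10 pan-neuronal markers were also measured, with no value under 8.89. No array of unpurified RNA was analysed here, so whether the neuronal mRNA came with tagged ribosomes was not tested. No detection calls were used and probes differ in brightness, so levels are compared between arrays for 1 gene, not between genes. Array 2 of each group lay far from the other 4 arrays on the first principal component, at 48.89 (control) and 34.61 (stroke) against -26.61 to -14.44. The members' differences are therefore also given without the arrays numbered 2.

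The promoters show what these genes hold at their start sites. RefSeq (GRCm38.p6) windows of 300 bases, from 250 before to 50 after a start site, were matched for 7 of the 10 genes (9 windows). Both dopamine receptor genes are shown because they define the pathways, and Gpr6 and Tac1 because their stroke and control values did not overlap. Capitals mark the CRE core TGACG on either strand.
Drd1 (chr13:54055609-54055908, minus strand): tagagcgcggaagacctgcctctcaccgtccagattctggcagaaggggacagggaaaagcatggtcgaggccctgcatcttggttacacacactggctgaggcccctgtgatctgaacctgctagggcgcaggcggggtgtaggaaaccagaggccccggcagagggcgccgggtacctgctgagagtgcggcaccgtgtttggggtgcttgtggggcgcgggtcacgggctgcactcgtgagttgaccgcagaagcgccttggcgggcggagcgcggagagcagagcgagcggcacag
Tac1 (chr6:7554811-7555110, plus strand): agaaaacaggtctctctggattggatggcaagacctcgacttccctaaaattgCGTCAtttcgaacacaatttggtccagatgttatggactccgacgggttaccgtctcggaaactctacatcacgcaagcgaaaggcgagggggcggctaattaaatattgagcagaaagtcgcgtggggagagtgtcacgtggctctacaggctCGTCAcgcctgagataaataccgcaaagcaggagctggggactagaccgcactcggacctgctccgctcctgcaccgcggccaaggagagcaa
Drd2 (chr9:49340153-49340452, plus strand): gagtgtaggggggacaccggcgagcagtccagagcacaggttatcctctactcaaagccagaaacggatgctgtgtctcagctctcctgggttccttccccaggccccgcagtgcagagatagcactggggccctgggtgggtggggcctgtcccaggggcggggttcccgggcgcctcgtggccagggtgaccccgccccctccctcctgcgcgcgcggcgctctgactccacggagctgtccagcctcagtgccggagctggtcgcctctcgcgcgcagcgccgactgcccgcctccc
Gpr6 (chr10:41072241-41072540, minus strand): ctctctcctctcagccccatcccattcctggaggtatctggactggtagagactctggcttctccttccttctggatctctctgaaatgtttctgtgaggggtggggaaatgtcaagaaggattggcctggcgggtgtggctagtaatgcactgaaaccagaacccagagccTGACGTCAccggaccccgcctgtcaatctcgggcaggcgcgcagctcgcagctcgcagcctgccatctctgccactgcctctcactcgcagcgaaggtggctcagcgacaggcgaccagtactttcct
The Gpr6 window holds the full palindrome TGACGTCA, which contains the core on each strand and begins 78 bases upstream of the start site. That full element occurs in 1.79% of 32851 mouse promoter windows searched on both strands. The core, which the full element includes, occurs in 20.8% of windows and in those of Gpr6, Isl1 and Tac1 among the members. Tac1 has 2 cores, both on the strand opposite to the gene. No match was found in the windows of Drd1, Drd2, Chrm4 and Pdyn, which says only that these letters are not there. GC content of the windows shown was 65.7% for Drd1, 54% for Tac1, 70.3% for Drd2 and 58.7% for Gpr6, against a median of 52.7% over all windows.

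In the stroke arrays the mean signal of all 10 genes was lower than in control arrays, by 0.15 to 0.82 on the log2 scale; the difference was below 0 for 52.8% of all genes and for 47% of those above the median signal, where all 10 lie. The widest differences were those of 3 indirect pathway receptors, with Adora2a at 1.76-fold, Drd2 at 1.56-fold and Gpr6 at 1.48-fold lower signal. Drd1, the direct pathway dopamine receptor, followed at 1.45-fold lower, with a wide spread between arrays, and Gpr52, the other indirect pathway receptor, at 1.31-fold. Chrm4, the other direct pathway receptor, differed by 1.19-fold, and the peptide precursors Tac1, Penk and Pdyn by 1.25-fold or less. In such pulldowns from many cells, fewer cells of a type, less RNA per cell and a smaller share of neuronal mRNA in the pulldown cannot be told apart.

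No member passed the threshold (limma, adjusted p under 0.05 over all genes; 0 of 10), where 0.424% of all genes passed in either direction and 0.00339% were called lower. At an unadjusted p under 0.05, 3 of the 10 (Adora2a, Drd2 and Gpr6) were lower, against 2.07% of all genes. With the replicate number as a block, 1 of 10 passed: Adora2a, adjusted p = 0.045, in a fit that called 0.53% of all genes and 0.0102% lower. In 3 of the 10 (Adora2a, Gpr6 and Tac1), every stroke value lay below every control value, which held for 4.89% of all genes and 4.15% of those above the median signal.

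**Figure D1:**
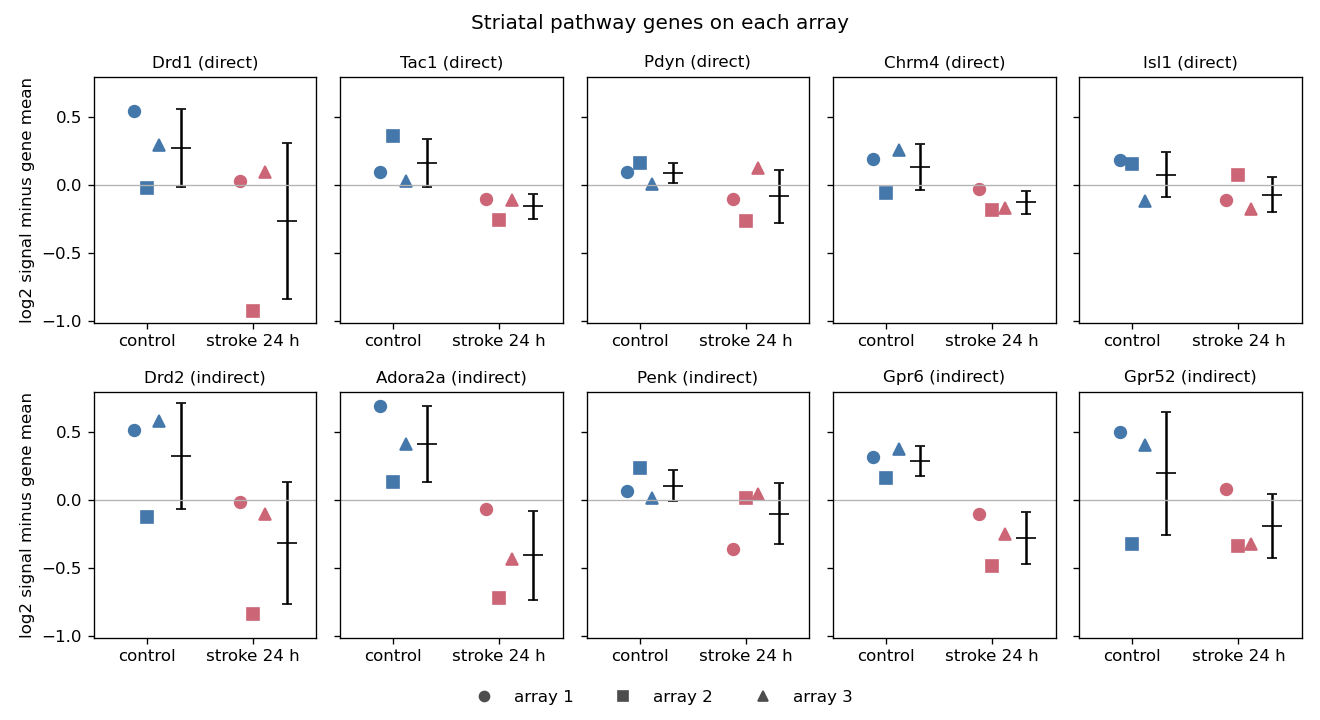
Log2 signal of each member on each array after subtracting the gene's mean over the 6 arrays (vertical axis), for control and stroke 24 h (horizontal axis). Symbols stand for the array number, and the bar beside each group is its mean with SD (n = 3). Adora2a, Gpr6 and Tac1 have no overlap between groups, while array 2 of stroke is the lowest of the 6 for Drd1, at 6.66.

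Adora2a encodes the adenosine receptor that opposes Drd2 in indirect pathway neurons. Its log2 signal was 9.20, 8.64 and 8.92 on control arrays 1, 2 and 3 and 8.44, 7.78 and 8.08 on the stroke arrays. The highest stroke array stayed under the lowest control array, and array 2 was the lowest of both groups. Group means were 8.92 ± 0.28 and 8.10 ± 0.33 (SD, n = 3), a log2 difference of -0.82 ± 0.21 (SE of the fit). Pairing arrays by number gave -0.76, -0.85 and -0.84, a narrower range than the spread within either group, and the difference was -0.80 without the arrays numbered 2. Of 29458 genes, 23 had a lower difference.

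Drd2 encodes the dopamine receptor through which dopamine dampens indirect pathway neurons. Control arrays read 10.33, 9.69 and 10.39, and stroke arrays 9.80, 8.98 and 9.71. The groups overlapped through control array 2, which lay under stroke arrays 1 and 3. Its difference was -0.64 ± 0.27 (means 10.14 ± 0.39 and 9.50 ± 0.45, SD, n = 3) and -0.53, -0.71 and -0.68 between arrays of the same number. Leaving out stroke array 2 brought the difference to -0.38, leaving out control array 2 to -0.86, and leaving out both to -0.60.

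Gpr6 and Gpr52 are orphan receptors that couple to the protein that stimulates cyclic AMP synthesis and are enriched in indirect pathway neurons. Gpr6 read 7.61, 7.46 and 7.67 in control and 7.20, 6.82 and 7.05 in stroke. These values were separated in all arrays, with a difference of -0.56 ± 0.15 (means 7.58 ± 0.11 and 7.02 ± 0.19, SD, n = 3). Without the arrays numbered 2 the difference was -0.52. The Gpr6 promoter is the one with the full CRE printed above.

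Gpr52 read 8.64, 7.82 and 8.54 in control and 8.22, 7.80 and 7.82 in stroke. Control array 2 sat at the level of 2 stroke arrays, so the groups overlapped. The difference was -0.39 ± 0.24 (means 8.33 ± 0.45 and 7.95 ± 0.24, SD, n = 3). It depended on single control arrays, at -0.23 without control array 1 and -0.64 without control array 2. Without both arrays numbered 2 it was -0.57, and the authors' deposited table, whose averages are not plain means, gives a fold of 1.71 lower in stroke.

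Penk, the precursor of the enkephalins and the peptide gene of the indirect pathway, differed least within that pathway. Control arrays read 10.67, 10.84 and 10.62 and stroke arrays 10.25, 10.62 and 10.65. Only stroke array 1 stood low, and the difference of -0.20 ± 0.16 (means 10.71 ± 0.11 and 10.51 ± 0.23, SD, n = 3) became -0.07 without it. Without the arrays numbered 2 the difference was -0.20. The authors' deposited table gives a fold of 1.02 lower in stroke for Penk.

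Drd1, the dopamine receptor of direct pathway neurons, read 8.13, 7.56 and 7.87 in control and 7.61, 6.66 and 7.68 in stroke. Stroke array 2 lay far under the others, and stroke arrays 1 and 3 overlapped with control array 2. The difference of -0.54 ± 0.29 (means 7.85 ± 0.28 and 7.32 ± 0.57, SD, n = 3) was -0.21 without stroke array 2 and -0.35 without both arrays numbered 2. For Drd1 the authors' deposited table gives a fold of 1.16 lower in stroke.

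Chrm4 encodes the muscarinic acetylcholine receptor that lowers cyclic AMP in direct pathway neurons. It read 7.31, 7.06 and 7.38 in control and 7.09, 6.94 and 6.96 in stroke. Control array 2 lay just under stroke array 1, the single point of overlap. Means were 7.25 ± 0.17 and 6.997 ± 0.08 (SD, n = 3), a difference of -0.26 ± 0.14. Without the arrays numbered 2 the difference was -0.32.

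Tac1 is the precursor of substance P and neurokinin A. It read 8.20, 8.47 and 8.14 in control and 8.01, 7.85 and 7.997 in stroke. The groups did not overlap, and array 2 was the highest of control and the lowest of stroke. The difference of -0.32 ± 0.14 (means 8.27 ± 0.18 and 7.95 ± 0.09, SD, n = 3) was therefore smaller, at -0.17, without the arrays numbered 2.

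Pdyn is the precursor of the dynorphins. Its control values of 7.43, 7.49 and 7.34 overlapped with stroke values of 7.23, 7.07 and 7.45. The difference was -0.17 ± 0.15, and -0.05 without the arrays numbered 2. Between arrays numbered 3 it was 0.11, so the direction was not the same in every pair.

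Isl1, a homeodomain transcription factor of developing direct pathway neurons that is also used by cholinergic neurons, read 7.45, 7.42 and 7.14 in control and 7.15, 7.33 and 7.08 in stroke. The ranges overlapped, with the smallest difference of the 10 at -0.15 ± 0.15. It was -0.09 without control array 1 and without stroke array 3, and -0.24 without control array 3. Without the arrays numbered 2 the difference was -0.18.

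Averaged over members, both pathways had lower means in stroke. Each gene was centred on its mean over the 6 arrays before averaging. The direct members averaged 0.22, 0.12 and 0.09 in control and -0.06, -0.31 and -0.05 in stroke, a difference of -0.29 that was -0.21 without the arrays numbered 2. The indirect members averaged 0.41, 0.01 and 0.35 in control and -0.09, -0.47 and -0.21 in stroke, a difference of -0.52 that was -0.54 without those arrays. In neither pathway did the array means of stroke and control overlap.

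Whether the pathways differed from each other can be read within each array, where a shift common to all genes of an array cancels. Indirect minus direct averages were 0.19, -0.10 and 0.26 in control and -0.03, -0.16 and -0.17 in stroke. These overlapped, because control array 2 lay under stroke array 1. The shift of -0.24 (means 0.12 ± 0.19 and -0.12 ± 0.08, SD, n = 3) ranged from -0.35 to -0.16 when single arrays were left out. After quantile normalization, which can change such a difference within an array, the shift was -0.21. Pairs of the same number gave -0.22, -0.06 and -0.43. With receptors alone (2 direct, 4 indirect) the shift was -0.21, and pairs gave -0.16, -0.04 and -0.41. The shift thus had 1 sign in all pairs with either set of genes. The unpaired groups overlapped with all members. With receptors alone they did not, at 0.003 to 0.167 in control and -0.243 to -0.027 in stroke.

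**Figure D2:**
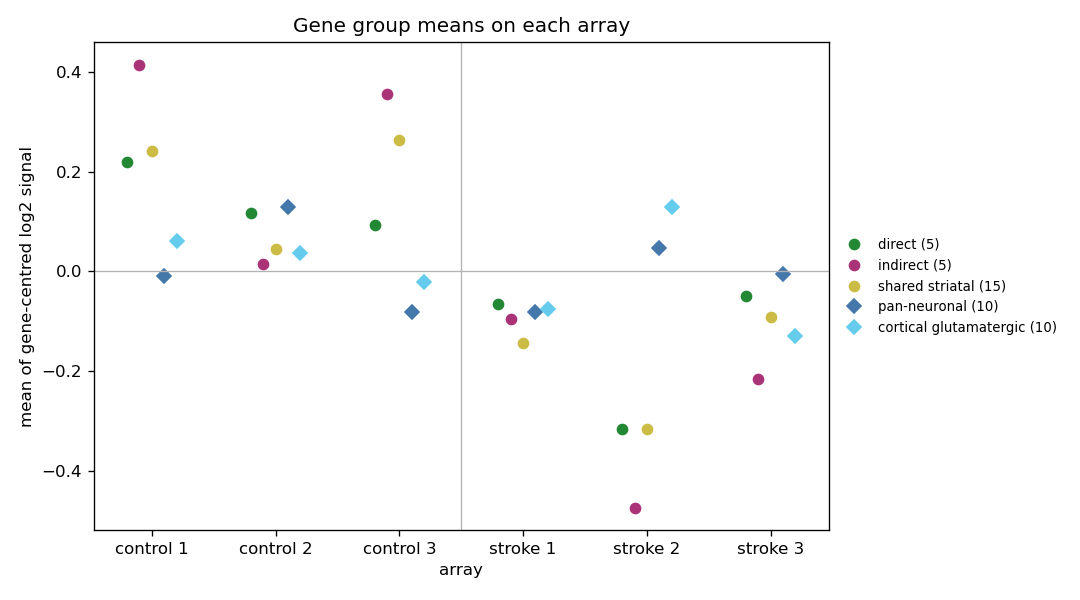
Mean gene-centred log2 signal on each array (vertical axis) of the direct and indirect members, the genes shared by striatal projection neurons, and the pan-neuronal and cortical glutamatergic markers, with the number of genes in parentheses. The 3 striatal groups (circles) are lower on each stroke array than on any control array, while the diamonds of the other neuron lists overlap between groups.

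How the members vary among arrays of the same group is a measure apart from the difference between the groups. The 6 receptor genes varied together: control array 2 was the lowest control array and stroke array 2 the lowest stroke array for 6 of 6. Both held for 21.4% of all genes and for 36% of genes above the median signal. In stroke the margin to the next array was narrow for Gpr52 (7.80 against 7.82) and Chrm4 (6.94 against 6.96). The 3 peptide precursors went the other way in control, where array 2 was the highest for 3 of 3, against 42.5% of all genes; in stroke it was the lowest for 2 of 3. Correlations of the deviations from group means over the 6 arrays, which share the group-mean subtraction, had a median of 0.83 over the 15 receptor pairs (0.53 to 0.96). They had a median of -0.29 over the 18 pairs of a receptor with a precursor (-0.81 to 0.63). No such median was taken over pairs of other genes. The part of a general difference of the arrays numbered 2 was therefore not tested.

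The spread within groups also differed between members, and not along the line between receptors and precursors. The pooled SD within groups was 0.45 for Drd1, 0.42 for Drd2, 0.36 for Gpr52 and 0.30 for Adora2a, above that of 93.5%, 91.4%, 85.4% and 76.5% of genes. It was 0.13 to 0.18 for Chrm4, Tac1, Pdyn, Isl1, Gpr6 and Penk, with Chrm4 the lowest, above 20.6% of genes. The same difference in signal is thus known less precisely for the dopamine receptors than for Gpr6.

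**Figure D3:**
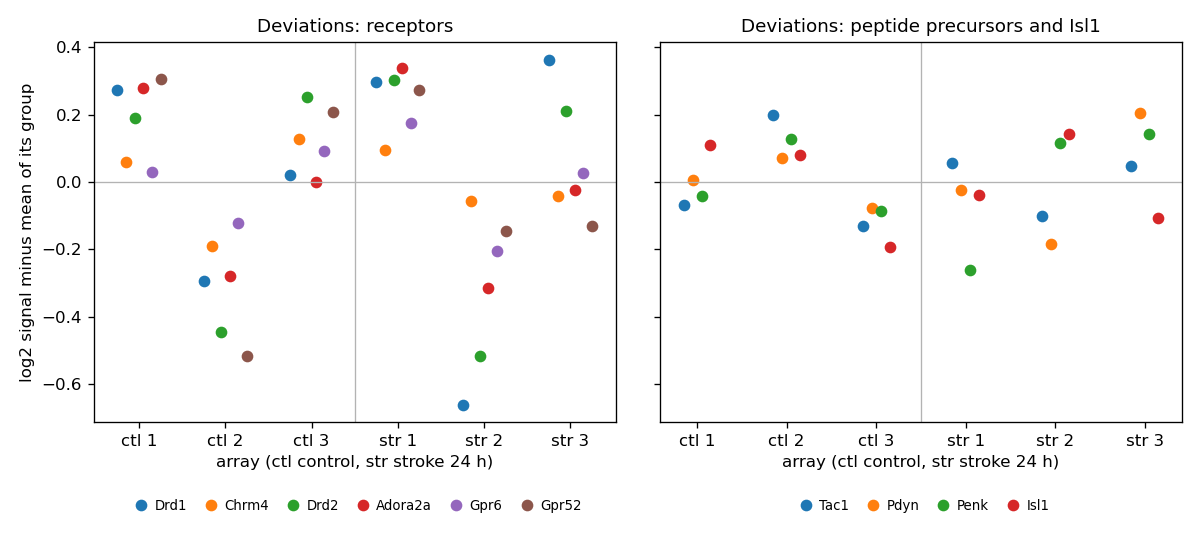
Deviation of each array from the mean of its group (vertical axis, log2 signal) for the 6 receptor genes (left) and for the peptide precursors and Isl1 (right). All receptors are lowest on array 2 of both groups, Gpr52 and Chrm4 in stroke by a narrow margin. The precursors are highest on control array 2.

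Genes outside the members with a mean signal over the median were ranked by how closely their deviations followed the average of the 10. Gene models and microRNA, small nucleolar RNA, olfactory and vomeronasal receptor genes were left out. The closest were Scarna17, Uqcc1, Fuca1, Ehmt2 and Csnk1g2 (all r = 0.999 over 6 arrays). Scarna17 is a small Cajal body RNA and Uqcc1 an assembly factor of a respiratory chain complex. Fuca1 is a lysosomal fucosidase, Ehmt2 a histone methyltransferase and Csnk1g2 a casein kinase. They are the highest of many genes ranked over only 6 arrays, so values of r this high can arise without a link. They share the low arrays numbered 2, at -1.08 and -1.48 for Scarna17 and -0.16 and -0.23 for Uqcc1. Among members, Drd1 (r = 0.97) and Drd2 (r = 0.96) followed that average most closely and Penk (r = -0.64) least. The average includes each of these members, and those with a wide spread, such as Drd1 and Drd2, weigh more in it.

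Genes that both populations of projection neurons use had lower means as well. The list was written with earlier results of these data known. Of 15 such genes all 15 had a lower mean in stroke, as did 52.8% of all genes. In 7 the groups did not overlap with stroke lower, against 4.89% of all genes and 4.15% of those above the median signal. The median difference was -0.35 against -0.01 over all genes tested. By limma 0 of 15 passed the threshold in either direction, and 6 were lower at an unadjusted p under 0.05, against 2.07% of all genes. Gng7, a G protein subunit of the cyclic AMP route, was at 11.08 ± 0.12 and 10.73 ± 0.18 (SD, n = 3; adjusted p = 0.853 by limma) and Meis2, a homeodomain factor, at 11.26 ± 0.13 and 11.14 ± 0.20 (adjusted p = 1).

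Further markers of the same neurons had medians near or above that of all genes. Of 5 other direct pathway genes 4 had a higher mean in stroke, with a median difference of 0.15. In 0 of the 5 did every stroke value lie above every control value. In 1 every stroke value lay below every control value, against 4.89% of all genes. The widest rises rested on stroke array 3, at 8.78 for Zfp521 and 8.11 for Ebf1. On the other arrays the highest values were 7.81 (Zfp521) and 7.17 (Ebf1). The log2 of the summed signal of the 5 was 11.03 to 11.18 in control and 11.24 to 11.34 in stroke. Bright genes weigh most in that sum. The brightest of the 5 were Sfxn1, a mitochondrial serine carrier (10.35 ± 0.09 and 10.49 ± 0.18, SD, n = 3), and Eya1, a transcriptional coactivator (8.82 ± 0.28 and 8.97 ± 0.27). Of 5 other indirect pathway genes 3 were lower, with a median of -0.03 and Grik3, a kainate receptor subunit, at 8.96 ± 0.33 and 8.89 ± 0.17. None of these 10 passed by limma, and 1 (Slc35d3, a sugar transporter family gene, named after its values were seen) was lower at an unadjusted p under 0.05. Slc35d3 is also the direct pathway gene without overlap, at 6.94 to 7.05 in control and 6.51 to 6.83 in stroke.

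Partner genes of the members were read in 3 lists. Among 15 measured receptors for the same ligands, 0 passed by limma and 11 had a lower mean (median difference -0.10; 1 lower and 1 higher at an unadjusted p under 0.05). Adora1, the adenosine receptor that opposes Adora2a in its effect on cyclic AMP, was at 10.59 ± 0.19 and 10.72 ± 0.17, and Chrm1 at 9.83 ± 0.20 and 9.57 ± 0.07 (SD, n = 3). Among 9 genes that process peptide precursors, 0 passed by limma and 6 had a lower mean (median -0.06; 1 lower at an unadjusted p under 0.05). Cpe, which trims the cut peptides, was at 12.35 ± 0.10 and 12.36 ± 0.03. The exception at the unadjusted level was Pcsk1, a convertase that cuts the precursors, named after its values were seen, at 7.93 ± 0.22 and 7.33 ± 0.11 (adjusted p = 0.341 by limma). Among 11 other neuropeptide precursors 0 passed by limma and 10 had a lower mean, with 0 at an unadjusted p under 0.05 and a median of -0.09; Sst was at 11.64 ± 0.25 and 11.53 ± 0.28.

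**Figure D4:**
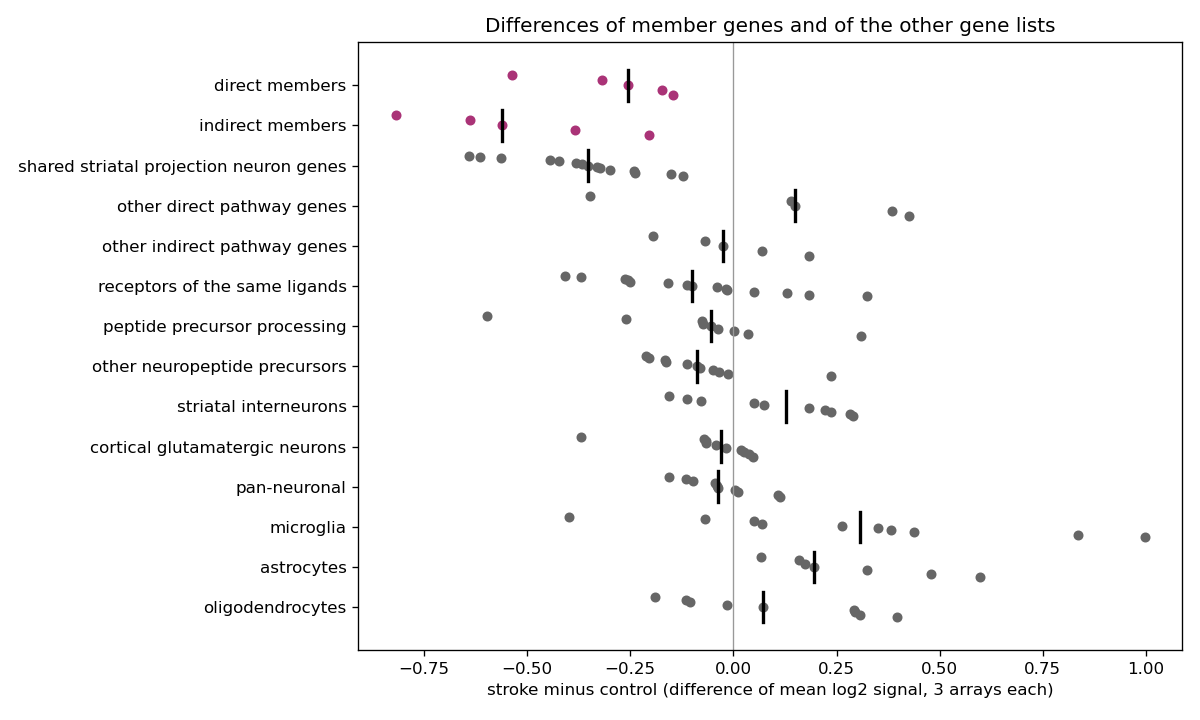
Stroke minus control difference of mean log2 signal (horizontal axis) for each gene of each list (vertical axis), with the list median as a bar. Both member groups and the shared striatal genes lie to the left of 0, while the interneuron, cortical and pan-neuronal lists have medians between -0.04 and 0.13.

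Markers of other cells were read beside these differences. Signals of each list were summed and the log2 of the sum taken, so bright genes weigh most. For the 10 pan-neuronal markers this ranged from 15.12 to 15.31 in control and 15.13 to 15.29 in stroke. For the 10 cortical glutamatergic markers it ranged from 13.47 to 13.61 and 13.43 to 13.63. The 10 striatal interneuron markers, which include Sst and Npy, ranged from 12.24 to 12.84 and 12.30 to 12.83. All 3 lists overlapped between groups, with 0 genes called by limma and 0 at an unadjusted p under 0.05. Relative to the pan-neuronal average of the same array, the indirect members were 0.50 lower in stroke (change of -0.50) and the direct members changed by -0.26, and control array 2 overlapped with stroke arrays in both.

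Sums of microglia markers were higher in stroke without overlap, and those of astrocyte markers overlapped. The log2 of the summed signal of the 10 microglia markers was 10.52 to 10.92 in control and 10.95 to 11.19 in stroke. That of the 7 astrocyte markers measured, of 8, was 12.34 to 12.68 and 12.58 to 12.83. No gene of either list passed by limma. At an unadjusted limma p under 0.05, 3 microglia and 2 astrocyte markers were higher and 1 microglia marker lower. Of all genes, 3.69% were higher and 2.07% lower at that level. Every stroke value lay above every control value for 3 microglia and 3 astrocyte markers, as for 6.34% of all genes. Every stroke value lay below every control value for 1 microglia marker (P2ry12, named for that count), as for 4.89% of all genes. No marker was at 0, and the lowest value was 5.72 for microglia and 7.31 for astrocytes. For 9 oligodendrocyte and 7 endothelial markers the sums overlapped, at 14.07 to 14.30 and 14.16 to 14.50, and 8.50 to 8.98 and 8.52 to 9.39. By limma 0 of them passed, and 1 of each list (Mobp and Cdh5, named for that count) was higher at an unadjusted p under 0.05. For Mobp every stroke value lay above every control value. The part of such marker differences in the members' lower signal was not tested.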

How the data were processed

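The value table as deposited holds a log2 signal for 41345 transcript clusters on 6 arrays, already summarised and scaled by the authors with Transcriptome Analysis Console 3.0, per the submitters' processing notes and the series' design text; its settings are not given in these sources. The authors' deposited workbook gives, per the file headers (annotation na36, mm10), group averages in log2, a p-value with its adjustment, and a fold change, which is a score carrying a minus sign for lower genes. Symbols came from it; for symbols with several clusters the brightest was kept, clusters with several symbols were left out, and no filter on dim genes was used.

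Stroke and control were compared across 29458 genes by limma 3.58.1 in R 4.3.3 (lmFit, eBayes) with Benjamini-Hochberg adjustment and a threshold of 0.05, tested first on simulated data. Members and lists were chosen with earlier results of these data known. Named were all members and, of other lists, genes past the threshold or else the 2 brightest; others are marked. Adora3 and Gfap are missing from their lists because their clusters are shared. A result on a further gene is not reported here. The number of arrays limits precision, and p-values measure the spread between these arrays, whose separate animals the labels do not detail. Replicate numbers were taken as pairing arrays on the basis of these same data. Deviations from group means of same-numbered control and stroke arrays correlated at 0.299, 0.576 and 0.39 across genes (unlike numbers -0.46 to 0.237). Deviations within a group offset each other, so these correlations are not independent. The labels name no shared batch, and the call of Adora2a with the block rests on this pairing. Alternatives were this block, 2 scalings, 2 filters, other moderation, array weights, cluster choices, the authors' averages and leaving out arrays.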

Additional observations from a re-analysis of the deposited data

How the results depend on the processing

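All 10 member differences stayed below 0 in the 11 alternatives that can change them (the other 6 of 17 alter only the test, the genes tested or the choice among clusters, of which each member has 1), and the pathway averages moved by less than the spread between arrays in those 11. Leaving out 1 array gave -0.33 to -0.20 for the direct members, -0.65 to -0.42 for the indirect members and -0.35 to -0.16 for indirect minus direct. With the replicate block 1 member was called (Adora2a) in place of 0, and the block changed no other member's call. Of the genes in the other striatal, receptor and peptide lists, 0 were called by limma in any of the alternatives run. Over all genes, 125 were called. The number was 217 with array weights, 70 without the arrays numbered 2 and 25 to 74 when 1 array was left out. It was 34 in a fit of all 41345 transcript clusters, which include clusters not in the workbook. That count covered only the brightest cluster of each symbol. Quantile normalization and centring on array medians moved no call of a member. The authors' averages allow no count of calls. The authors' averages gave -0.78 for Gpr52, -0.18 for Tac1 and -0.03 for Penk, and leaving out both arrays numbered 2 gave -0.17 for Tac1. Apart from changes by construction (fewer arrays, more clusters tested), the cause was not tested. No detection calls were available to set a lower limit of signal.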
